A study of Homo sapiens with 60 samples.

Results

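The expression of 8 genes that liver cells use to make blood plasma proteins, or to switch such genes on, was followed in A549 cells, a human lung adenocarcinoma cell line, after exposure to herbal extracts of the tonifying kind. The members were taken by name: the rows of the gene table for APOB, TF, HP, KNG1, SERPINA1, AMBP, HNF4A and FOXA2, which are 8 of the 60675 gene identifiers in the table and 8 of the 17765 genes that passed a filter on low counts. All 8 members passed that filter. The label of liver-type secreted proteins describes 6 of them, since HNF4A and FOXA2 encode transcription factors that stay in the nucleus.

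The study treated A549 cells for 24 h and sequenced messenger RNA in 60 libraries of 25 groups. The treated groups had water extracts of the formulas Sibjeondaebo-tang and Palmul-tang, or ethanol extracts of Poria Cocos, Atractylodis Rhizoma, Glycyrrhizae Radix (licorice root), Panax Ginseng, Angelicae Gigantis Radix and Paeoniae Radix, each at 20, 100 and 500 µg/mL, and the control group had the DMSO vehicle alone (n = 3). Each dose had 3 libraries, except for Palmul-tang with 2, and for Angelicae and Paeoniae with 1. All groups were the same single cell line in RPMI medium with serum, and no label says that replicates came from separate cultures, so p-values measure the spread between these libraries, which may be technical. The labels give the same doses for every extract, whereas the design text says that extracts whose inhibitory concentration lay below the top dose were given at lower doses, so equal labels may not mean equal doses.

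In the liver, hepatocytes secrete most plasma proteins. The nuclear receptor HNF4A and the forkhead factors FOXA1 and FOXA2 bind control regions of many of those genes, together with C/EBP factors. APOB is the structural protein of very low and low density lipoproteins, TF (transferrin) carries iron, HP (haptoglobin) binds free haemoglobin, KNG1 (kininogen) is the precursor of bradykinin, SERPINA1 (alpha-1-antitrypsin) inhibits neutrophil elastase, and AMBP is cut into alpha-1-microglobulin and bikunin. SERPINA1 and HP are also acute phase genes, which hepatocytes raise in response to interleukin 6. In the lung, alpha-1-antitrypsin protects the airspaces from neutrophil proteases, and FOXA2 is also a factor of airway and alveolar epithelium.

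Library totals ran between 18602484 and 29764358 counts. The third library at 20 µg/mL Poria stood apart, with 3522 genes that were seen in at most 3 other libraries, against at most 286 in the rest. The epithelial markers KRT8, KRT18 and KRT7 had medians of 3644, 2401 and 2804 CPM (counts scaled to library size, here by the TMM method). EPCAM had a median of 18.8 CPM and the lung factor NKX2-1 of 0.923 CPM. The alveolar and airway markers were mixed. ABCA3, SFTPD and AGER had medians of 26.9, 8.54 and 2.6 CPM, and NAPSA, SFTPB and SFTPC of 0.76, 0.433 and 0.0806 CPM. The surfactant gene SFTPA1 was at 0 in 58 libraries, SCGB1A1 in 51 and SLC34A2 in 41. Of 8 hepatocyte markers, albumin (ALB) had a median of 0.113 CPM with at most 8 counts in a library and TTR was at 0 in 27 libraries. CYP2E1 and CYP3A4 had medians of 0.044 and 0.0889 CPM. APOA1, AHSG, ASGR1 and SLC10A1 were seen in every library, with medians of 0.252, 0.35, 0.55 and 2.61 CPM. The summed level of 8 hepatocyte markers was 1.08 to 5.84 CPM over the 60 libraries. In bulk RNA, a lower level in fewer cells and a lower level in each cell cannot be told apart.

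The positions are those of GENCODE 29 on GRCh38. APOB (ENSG00000084674) lies on chromosome 2, 21001429 to 21044073, minus strand. TF (ENSG00000091513) lies on chromosome 3, 133745956 to 133796640, plus strand, where it overlaps SRPRB on the same strand. HP (ENSG00000257017) lies on chromosome 16, 72054592 to 72061055, plus strand, across from TXNL4B, and has a near copy, HPR. KNG1 (ENSG00000113889) lies on chromosome 3, 186717276 to 186744410, plus strand, across from HRG-AS1. SERPINA1 (ENSG00000197249) lies on chromosome 14, 94376747 to 94390693, and AMBP (ENSG00000106927) on chromosome 9, 114060127 to 114078472, both on the minus strand. HNF4A (ENSG00000101076) lies on chromosome 20, 44355700 to 44434596, plus strand, and FOXA2 (ENSG00000125798) on chromosome 20, 22581005 to 22585455, minus strand. The strand setting of the counting is not given in the sources used here, so reads of TF and SRPRB, and of a gene and its antisense partner, may be split in ways that cannot be told apart.

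Because several members moved together and the liver factors are themselves members, the RefSeq promoters (GRCh38.p14, 250 bases before to 50 after each start) were read for letters that such factors are known to bind. The table held 8 promoters for TF, KNG1, AMBP, SERPINA1 and HNF4A, and 4 of them carried a searched motif. Searched on both strands were AGGTCAAAG and CAAAGTCCA for HNF4, TGTTTAC and TGTTTGC for FOXA, and TTGCNNCAA for C/EBP. The stretches around the 4 matches are shown 5′ to 3′ on the gene's strand, with the matched letters in capitals.
TF, chr3:133746278-133746376, plus strand: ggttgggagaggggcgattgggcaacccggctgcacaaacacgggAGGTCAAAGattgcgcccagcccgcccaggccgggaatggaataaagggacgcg
KNG1, chr3:186717109-186717167, plus strand: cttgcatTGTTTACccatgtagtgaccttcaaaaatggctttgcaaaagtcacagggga
SERPINA1, chr14:94388659-94388755, minus strand: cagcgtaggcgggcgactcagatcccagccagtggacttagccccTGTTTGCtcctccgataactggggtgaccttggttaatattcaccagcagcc
AMBP, chr9:114078301-114078392, minus strand: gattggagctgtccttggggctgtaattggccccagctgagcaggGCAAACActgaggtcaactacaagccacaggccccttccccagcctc
In TF the capitals mark an HNF4 motif that begins 70 bases before the start, and the same letters occur in 0.276% of 35116 promoters. In KNG1 they mark the FOXA motif TGTTTAC, 243 bases before the start, found in 3.42% of promoters. In SERPINA1 they mark the FOXA motif TGTTTGC, 108 bases before the start, and in AMBP the same motif read from the other strand, 47 bases before the start, and this one occurs in 3.89% of promoters. The CAAAGTCCA and C/EBP motifs, found in 0.384% and 1.98% of promoters, were in none of the 8. A match is a description of the letters and does not show that a factor binds there.

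The 500 µg/mL Glycyrrhizae extract gave the largest changes of the 6 replicated extracts in 7 of the 8 members when set against 20 µg/mL of the same extract: 7 members fell and FOXA2 rose. APOB, KNG1, HP and TF fell by 3.32-fold to 5.37-fold, HNF4A by 2.38-fold and SERPINA1 by 2.07-fold. Here edgeR's quasi-likelihood test, with p-values adjusted by Benjamini-Hochberg and a limit of 0.05, called 37% of all genes, 18.4% lower and 18.5% higher, so a call in itself sets a gene little apart. The median change of the 8 members was -1.49 on the log2 scale, against 0.0 for all genes tested. For the Glycyrrhizae libraries, the share of all genes that do not overlap between doses, or with the other libraries, is not given here.

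**Figure D1:**
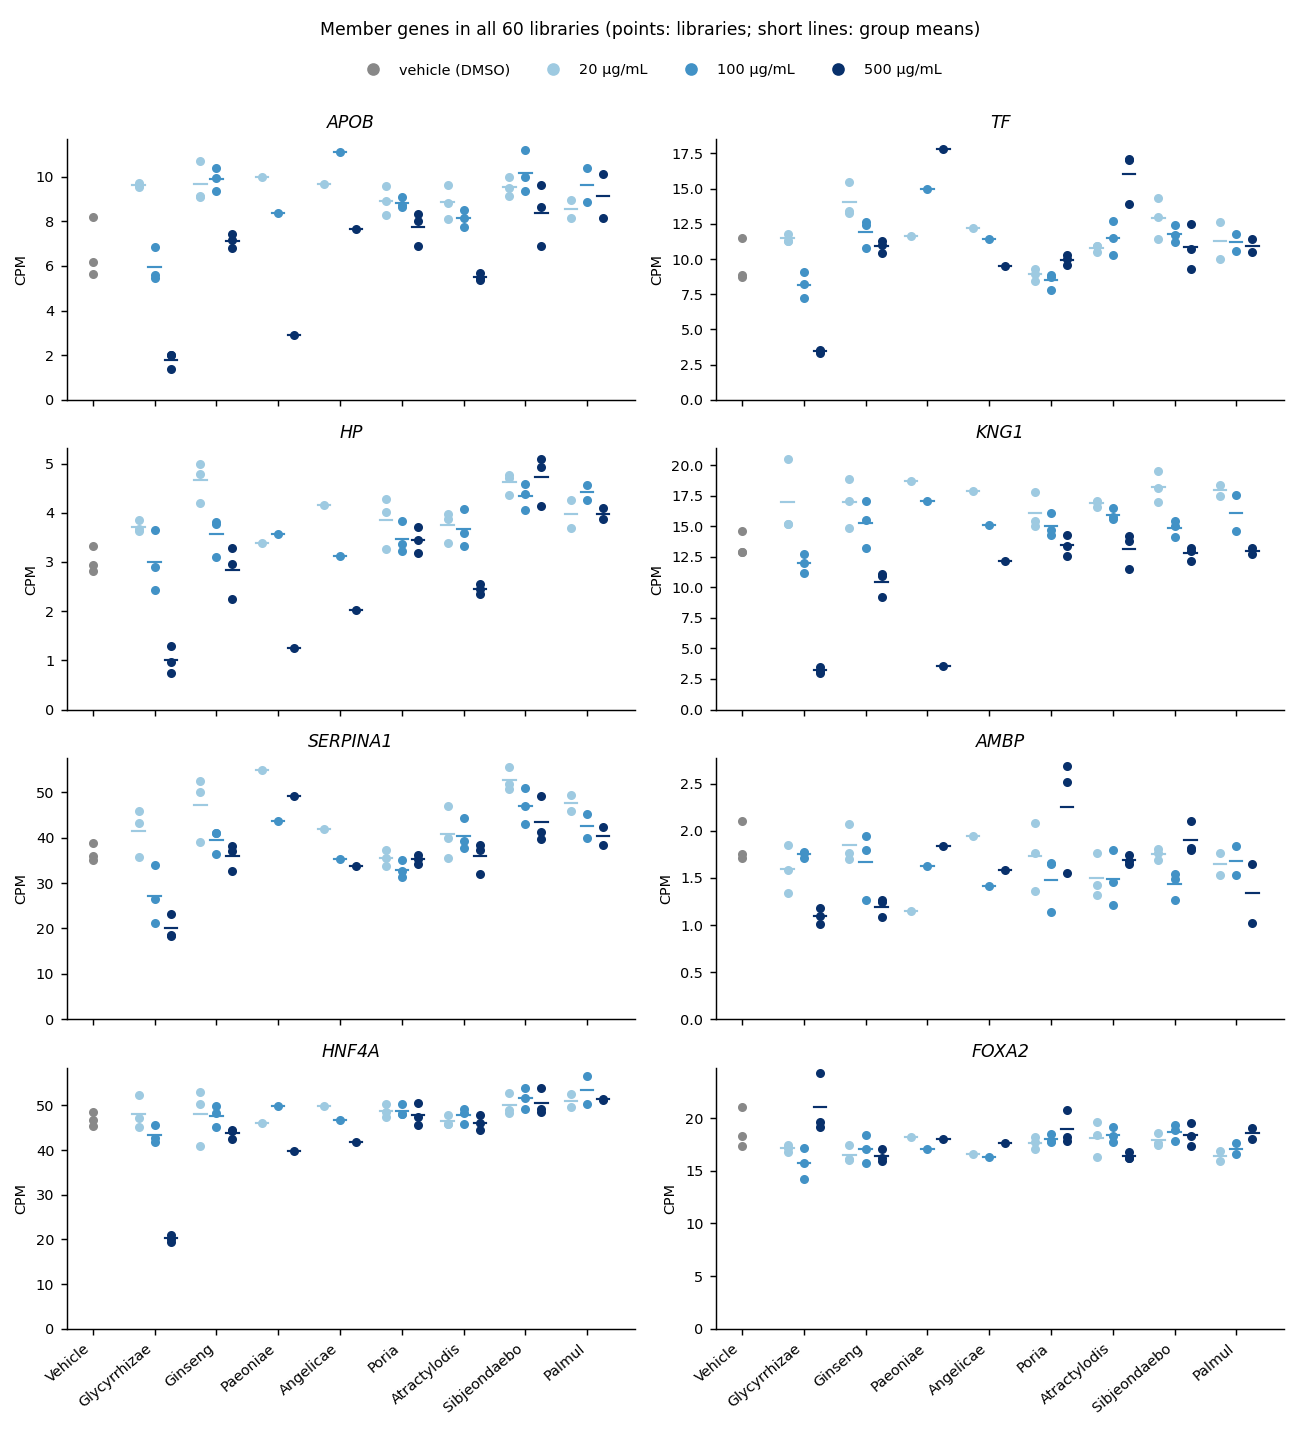
Levels (CPM, linear axes from 0) of the 8 members in all 60 libraries, by vehicle and by extract with doses in rising order; each point is a library and each short line a group mean. The 500 µg/mL Glycyrrhizae libraries lie below the other 57 libraries for APOB, TF, KNG1 and HNF4A, and FOXA2 has its highest library there, at 24.3 CPM. The share of all genes for which those libraries lie apart in this way is not given here.

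Among the secreted proteins, APOB stood at 9.52, 9.62 and 9.70 CPM at 20 µg/mL Glycyrrhizae, at 5.46, 5.59 and 6.83 CPM at 100 µg/mL, and at 2.01, 2.00 and 1.38 CPM at 500 µg/mL. The 3 doses did not overlap, though the share of all genes that did the same is not given here. The vehicle libraries (6.16, 5.64 and 8.21 CPM) overlapped those at 100 µg/mL. The change at 500 µg/mL was -2.42 ± 0.14 (log2 ± SE, edgeR adjusted p = 2.78e-19), and at 100 µg/mL it was -0.69 ± 0.11 (edgeR adjusted p = 0.000147). KNG1 stood at 15.2, 15.2 and 20.5 CPM at 20 µg/mL, at 12.7, 11.2 and 12 CPM at 100 µg/mL, and at 3.45, 3.01 and 3.17 CPM at 500 µg/mL. Again no dose overlapped another, and the largest step lay between 100 and 500 µg/mL. Its changes were -2.40 ± 0.12 at 500 µg/mL (edgeR adjusted p = 3.9e-21) and -0.50 ± 0.10 at 100 µg/mL (edgeR adjusted p = 0.00258), and without the third library at 20 µg/mL the change at 100 µg/mL was -0.34 (adjusted p = 0.191).

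TF, the iron carrier, stood at 11.3, 11.8 and 11.3 CPM at 20 µg/mL, at 8.24, 9.09 and 7.24 CPM at 100 µg/mL, and at 3.56, 3.49 and 3.32 CPM at 500 µg/mL Glycyrrhizae. The libraries at 500 µg/mL were the 3 lowest of the 60 for this gene. The change was -1.73 ± 0.12 at 500 µg/mL (edgeR adjusted p = 2.93e-16) and -0.48 ± 0.11 at 100 µg/mL (edgeR adjusted p = 0.00915; -0.40 without the third library at 100 µg/mL, adjusted p = 0.128). SRPRB, which shares its strand and part of its span with TF, averaged 50.5 ± 2.96 CPM at 500 µg/mL and 49.4 ± 2.69 CPM at 20 µg/mL (SD, n = 3 each). HP stood at 3.85, 3.67 and 3.62 CPM at 20 µg/mL, at 2.90, 2.44 and 3.66 CPM at 100 µg/mL, and at 1.29, 0.741 and 0.968 CPM at 500 µg/mL. Only the highest dose lay apart from the 20 µg/mL libraries, with a change of -1.87 ± 0.16 (edgeR adjusted p = 2.03e-13). The copy HPR had a mean of 0.0126 CPM at 500 µg/mL and 0.0243 CPM at 20 µg/mL, and the opposite-strand neighbour TXNL4B averaged 17.9 ± 0.563 and 17.5 ± 0.648 CPM at those doses (SD, n = 3 each).

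SERPINA1 and AMBP moved less. SERPINA1 stood at 43.2, 35.7 and 45.8 CPM at 20 µg/mL, at 33.9, 21.2 and 26.4 CPM at 100 µg/mL, and at 23.2, 18.4 and 18.5 CPM at 500 µg/mL. Its 100 µg/mL libraries overlapped those at 500 µg/mL and not those at 20 µg/mL. The change was -1.05 ± 0.12 at 500 µg/mL (edgeR adjusted p = 9.66e-10) and -0.62 ± 0.12 at 100 µg/mL (edgeR adjusted p = 0.00163; -0.46 without the second library at 100 µg/mL, adjusted p = 0.0703). AMBP rests on 23 to 62 counts a library over the series. It stood at 1.85, 1.58 and 1.34 CPM at 20 µg/mL, at 1.78, 1.77 and 1.71 CPM at 100 µg/mL, and at 1.10, 1.18 and 1.01 CPM at 500 µg/mL. The change at 500 µg/mL was -0.54 ± 0.20 (edgeR adjusted p = 0.0307), and the call was lost in 7 of 11 alternatives. These were DESeq2 (adjusted p = 0.0887), edgeR with no filter (0.108), edgeR in the compared groups alone (0.0627), and edgeR without any of 4 single libraries, replicates 1 or 3 at 500 µg/mL or replicates 1 or 2 at 20 µg/mL (-0.54 to -0.42, adjusted p 0.0606 to 0.155).

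The 2 transcription factors went opposite ways. HNF4A stood at 45.1, 52.3 and 47.1 CPM at 20 µg/mL, at 41.8, 45.6 and 42.8 CPM at 100 µg/mL, and at 19.5, 20.2 and 21.0 CPM at 500 µg/mL. In the other 57 libraries it was never below 39.9 CPM, so the fall was reached in this single group. The change at 500 µg/mL was -1.25 ± 0.07 (edgeR adjusted p = 2.76e-20), and at 100 µg/mL it was -0.15 ± 0.06 (edgeR adjusted p = 0.466). FOXA2 stood at 17.5, 17.2 and 16.8 CPM at 20 µg/mL, at 17.2, 14.2 and 15.7 CPM at 100 µg/mL, and at 24.3, 19.6 and 19.2 CPM at 500 µg/mL. The libraries at 500 µg/mL lay above those of both lower doses, and the change against 20 µg/mL was 0.29 ± 0.08 (edgeR adjusted p = 0.00153). That call rested on the first library at 500 µg/mL: without it the change was 0.18 (adjusted p = 0.0731).

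At 100 µg/mL Glycyrrhizae, 4 members (APOB, TF, KNG1 and SERPINA1) fell and none rose, where 0.788% of all genes were called and 0.608% fell. HP had a change of -0.31 ± 0.13 and was not called. In an edgeR fit to the 100 and 20 µg/mL libraries alone, none of the 4 calls was kept (adjusted p 0.114 to 0.453), and 8 of all genes were called.

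**Figure D2:**
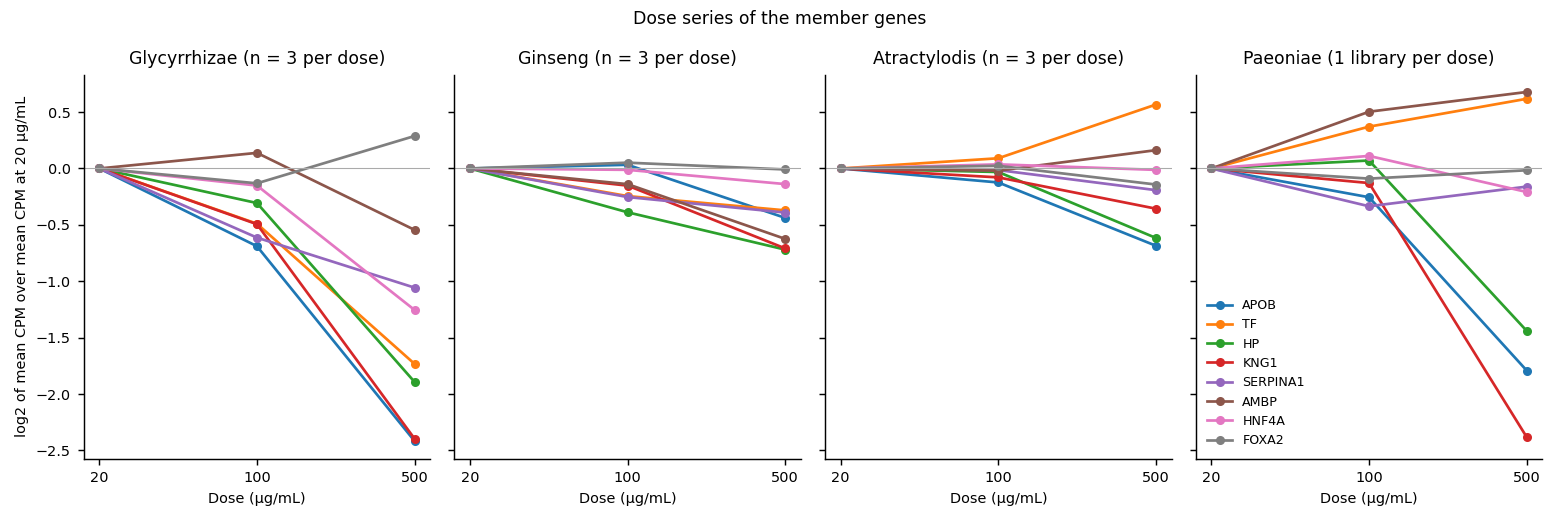
Change of each member with dose (log2 of mean CPM over mean CPM at 20 µg/mL, against dose on a log axis) for Glycyrrhizae, Ginseng and Atractylodis (means of 3 libraries) and for Paeoniae (1 library per dose). KNG1 and APOB reach about -2.4 at 500 µg/mL Glycyrrhizae, while TF ends above its 20 µg/mL level with Atractylodis and Paeoniae.

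Ginseng libraries carry the same set code as those of Glycyrrhizae. With Ginseng at 500 against 20 µg/mL, 3 members fell, where 1.2% of all genes were called and 0.653% fell. KNG1 stood at 10.9, 9.24 and 11.1 CPM at 500 µg/mL against 17.1, 14.9 and 18.9 CPM at 20 µg/mL, a change of -0.71 ± 0.10 (edgeR adjusted p = 4.18e-05). HP stood at 2.24, 2.96 and 3.28 CPM against 4.19, 4.78 and 5.00 CPM at those doses, a change of -0.72 ± 0.13 (edgeR adjusted p = 0.000994). APOB stood at 7.15, 6.80 and 7.45 CPM against 9.14, 10.7 and 9.11 CPM, a change of -0.45 ± 0.11 (edgeR adjusted p = 0.0258). The vehicle libraries, which carry another set code, stood at 5.64 to 8.21 CPM for APOB and 2.82 to 3.32 CPM for HP. Those at 500 µg/mL Ginseng overlapped them for both genes. The libraries of the 2 doses did not overlap for these 3 called genes, but the share of all genes without overlap is not given here. The APOB call was lost without any of the 3 libraries at 500 µg/mL or without the second at 20 µg/mL (adjusted p 0.0572 to 0.256). In an edgeR fit to the compared groups alone the calls of HP (adjusted p = 0.145) and APOB (adjusted p = 0.169) were both lost, and that of KNG1 was kept. Of the members that missed the threshold, TF changed by -0.36 (95% interval -0.56 to -0.17), SERPINA1 by -0.39 (-0.61 to -0.16), AMBP by -0.63 (-1.01 to -0.24), HNF4A by -0.14 (-0.26 to -0.02) and FOXA2 by -0.01 (-0.17 to 0.14). TF was called in 2 of 11 alternatives, SERPINA1 in 4 and HNF4A in 1. An edgeR fit with a block for the replicate number called TF (adjusted p = 0.0135) and SERPINA1 (adjusted p = 0.0132).

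The difference between Glycyrrhizae and Ginseng in their change to 500 µg/mL was tested directly, as an interaction. It was called for 7 members where it was called for 21% of all genes, and 1 of the 7, FOXA2 (0.31 ± 0.11, edgeR adjusted p = 0.0377), lost its call in 9 of 17 alternatives (adjusted p up to 0.23). HNF4A separated the extracts by -1.11 ± 0.09 (edgeR adjusted p = 2.05e-13), APOB by -1.98 ± 0.18 (edgeR adjusted p = 5.15e-12) and KNG1 by -1.69 ± 0.16 (edgeR adjusted p = 1.79e-11), each having fallen further with Glycyrrhizae. AMBP differed by 0.09 between the extracts, with a 95% interval of -0.47 to 0.65.

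With Atractylodis TF rose, while APOB and HP fell. At 500 against 20 µg/mL, 3 members were called where 0.208% of all genes were. TF stood at 13.9, 17.1 and 17.0 CPM at 500 µg/mL against 10.9, 10.5 and 10.9 CPM at 20 µg/mL, a change of 0.57 ± 0.10 (edgeR adjusted p = 0.00104). APOB stood at 5.47, 5.36 and 5.69 CPM against 8.82, 8.12 and 9.64 CPM, a change of -0.68 ± 0.12 (edgeR adjusted p = 0.000983). Neither of these called genes overlapped between the doses, and here too the share of all genes without overlap is not given. The APOB level at 500 µg/mL was also near the lowest vehicle library, at 5.64 CPM. HP stood at 2.34, 2.55 and 2.45 CPM against 3.87, 3.39 and 3.97 CPM, a change of -0.61 ± 0.14 (edgeR adjusted p = 0.0308), a call that was lost when any 1 of 5 of the 6 libraries was left out (adjusted p 0.0968 to 0.177) and in the compared groups alone (0.149). HNF4A was 46.1, 47.9 and 44.4 CPM at 500 µg/mL against 45.9, 45.9 and 47.9 CPM at 20 µg/mL, so these changes came with a change in HNF4A of -0.01 (95% interval -0.13 to 0.11). SRPRB, which overlaps TF, changed by 0.13 ± 0.06 (edgeR adjusted p = 0.648).

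The opposite course of TF was also tested as a difference between extracts, in comparisons chosen after the values were seen. TF differed between Atractylodis and Glycyrrhizae in its change to 500 µg/mL by 2.30 ± 0.16 (edgeR adjusted p = 4.1e-16), and between Atractylodis and Ginseng by 0.94 ± 0.14 (edgeR adjusted p = 0.000188), where 24.2% and 0.113% of all genes were called. The first pair carries different set codes, and so does the second. Within one set code, Atractylodis and Poria were not called apart for any member (0.0732% of all genes were called). By edgeR 4 members had an unadjusted p under 0.05 in that pair, as did 7.27% of all genes. In that pair DESeq2 called 0 of the 2 members to which it gave an adjusted p. There TF differed by 0.41 with a 95% interval of 0.12 to 0.69, and APOB by -0.48 with an interval of -0.79 to -0.17.

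**Figure D3:**
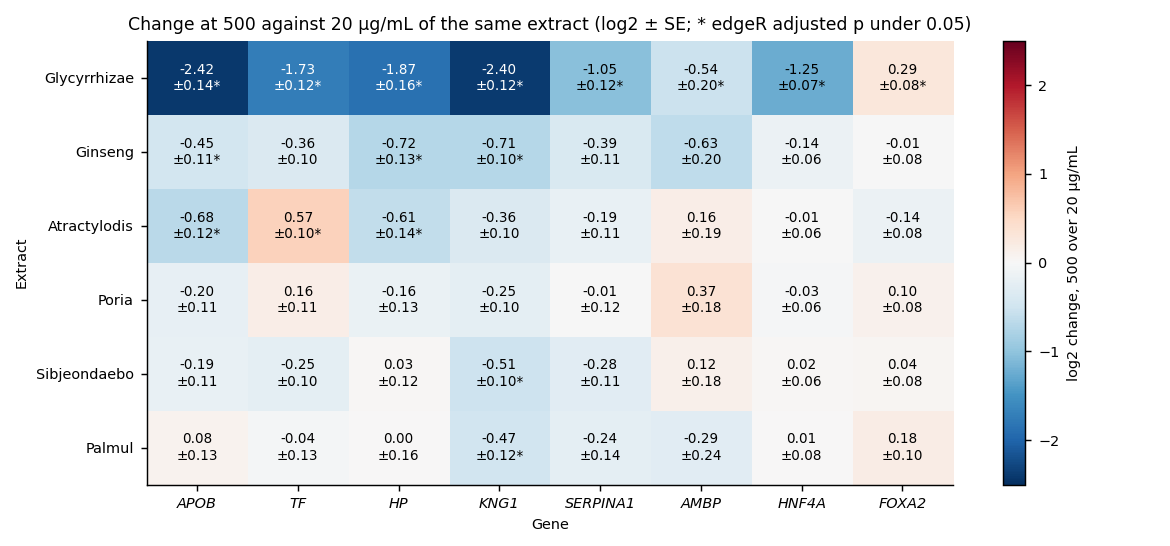
Change of each member at 500 over 20 µg/mL in the 6 replicated extracts (log2 ± SE; blue lower and red higher at 500 µg/mL; asterisks, edgeR adjusted p under 0.05). Glycyrrhizae is called in all 8 columns, KNG1 is called in 4 rows, and Poria in none.

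Like SERPINA1, which changed by as little as -0.01 with Poria, KNG1 was lower at 500 than at 20 µg/mL in every replicated extract. Of the 6 changes of KNG1, 4 passed the test. In Sibjeondaebo-tang it stood at 13.0, 13.2 and 12.2 CPM at 500 µg/mL against 17.0, 18.1 and 19.5 CPM at 20 µg/mL, a change of -0.51 ± 0.10 (edgeR adjusted p = 0.00075), the single member called where 3.78% of all genes were. In Palmul-tang it stood at 13.2 and 12.7 CPM against 17.5 and 18.4 CPM, a change of -0.47 ± 0.12 (edgeR adjusted p = 0.0259), again the single member called, where 2.08% of all genes were. The Palmul-tang call was lost when any of its 4 libraries was left out (adjusted p 0.115 to 0.248). In Poria KNG1 stood at 12.6, 14.3 and 13.4 CPM against 15.4, 15.0 and 17.8 CPM (-0.25 ± 0.10, edgeR adjusted p = 0.245), and in Atractylodis at 14.2, 11.5 and 13.8 CPM against 16.6, 17.0 and 17.1 CPM (-0.36 ± 0.10, edgeR adjusted p = 0.139). The vehicle libraries stood at 12.9, 12.9 and 14.6 CPM, so that, of the replicated extracts, the 500 µg/mL libraries of Glycyrrhizae and Ginseng lay wholly below the vehicle and those of the other 4 overlapped it.

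In Poria at 500 against 20 µg/mL 0 members were called, where 1.55% of all genes were. Of these members 2, KNG1 and AMBP, had an unadjusted p under 0.05 by edgeR, as did 11.9% of all genes. Without the Poria library that stood apart, edgeR also called 0 members. DESeq2 called 0 of the 4 members to which it gave an adjusted p, AMBP not among them. AMBP stood at 2.52, 2.69 and 1.55 CPM at 500 µg/mL against 1.36, 1.77 and 2.08 CPM at 20 µg/mL, and its libraries overlapped. The formulas Sibjeondaebo-tang and Palmul-tang were not called apart in their change to 500 µg/mL for any member (0% of all genes were called). By edgeR 0 members and 5.1% of all genes had an unadjusted p under 0.05, and DESeq2 called 0 of 8 members. KNG1 differed between the formulas by -0.04 with a 95% interval of -0.35 to 0.26. At 100 against 20 µg/mL, edgeR called 0 members in Ginseng, Poria, Atractylodis, Sibjeondaebo-tang and Palmul-tang, where it called 0.0788% of all genes in Sibjeondaebo-tang and 0% in the others. DESeq2 called 0 of 8 members in Ginseng and Atractylodis, 0 of the 7 with an adjusted p in Sibjeondaebo-tang and 0 of the 1 in Poria, and it gave none in Palmul-tang. The members with an unadjusted p under 0.05 by edgeR in those comparisons were 3 with Ginseng (TF, SERPINA1 and HP), 1 with Sibjeondaebo-tang and 0 with the other 3. Of all genes, 3.12% had such a p with Ginseng, 5.77% with Sibjeondaebo-tang, 4.32% with Poria, 2.5% with Atractylodis and 4.86% with Palmul-tang.

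Paeoniae and Angelicae have 1 library at each dose, so the values below have no replicate check and no test. With Paeoniae, KNG1 was at 3.59 CPM (72 counts) at 500 µg/mL against 18.7 CPM (375 counts) at 20 µg/mL, and APOB at 2.89 CPM (58 counts) against 10.0 CPM (201 counts). These 2 members were the ones that passed a 2-fold change on the log2(CPM + 1) scale, at -2.10 and -1.50, where 4.77% of all genes did. HP was at 1.25 CPM against 3.39 CPM, at -0.97 on that scale and at -1.16, past 2-fold, with 0.5 added in place of 1. HNF4A was at 39.9 CPM against 46.1 CPM, above every Glycyrrhizae library at 500 µg/mL, and SERPINA1 was at 49.2 CPM against 55.0 CPM. TF went the other way, at 11.6, 15.0 and 17.8 CPM over 20, 100 and 500 µg/mL, the last being the highest TF level of the 60 libraries. The overlapping SRPRB was at 66.8 CPM at 500 µg/mL against 46.1 CPM at 20 µg/mL, and its part in the TF value was not tested. With Angelicae 0 members passed 2-fold on the log2(CPM + 1) scale, where 0.129% of all genes did. HP was at 2.02 CPM at 500 µg/mL against 4.15 CPM at 20 µg/mL (-0.77), and KNG1 at 12.2 CPM against 17.9 CPM (-0.51).

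In order of level, the 500 µg/mL Glycyrrhizae group came lowest of the 25 groups for 7 members, and highest for FOXA2. FOXA2 had a mean of 21.0 CPM there, against a lowest group mean of 15.7 CPM at 100 µg/mL of the same extract. The share of all genes with their lowest or highest mean in this group is not given here. Its libraries overlapped other libraries for HP, SERPINA1, AMBP and FOXA2. For APOB the next lowest were the single Paeoniae library at 2.89 CPM and Atractylodis at 500 µg/mL (5.36 to 5.69 CPM). Then came Glycyrrhizae at 100 µg/mL (5.46 to 6.83 CPM) and the vehicle (5.64 to 8.21 CPM), and the last 3 of these groups overlapped. For KNG1 the next were Paeoniae at 3.59 CPM and Ginseng at 500 µg/mL (9.24 to 11.1 CPM), which ended just below Glycyrrhizae at 100 µg/mL (11.2 to 12.7 CPM). For HP the Paeoniae library at 1.25 CPM lay inside the Glycyrrhizae range of 0.741 to 1.29 CPM. For HNF4A a gap parted the Glycyrrhizae libraries, at most 21.0 CPM, from all others, at 39.9 to 56.6 CPM. For TF the top was held by Paeoniae at 17.8 CPM and Atractylodis at 500 µg/mL (13.9 to 17.1 CPM), and the Atractylodis libraries overlapped those of Ginseng at 20 µg/mL (13.3 to 15.5 CPM).

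Over the 25 group means (log2 CPM), the members varied together to different degrees, given here as a description over groups that share one cell line and, by extract, a set code. APOB and KNG1 had r = 0.93, APOB and HP 0.88, KNG1 and HP 0.88, and APOB and HNF4A 0.84. Without the 500 µg/mL Glycyrrhizae group (24 means) these were 0.87, 0.81, 0.79 and 0.69. HNF4A had r = 0.82 with HP and 0.81 with KNG1 over 25 means, and 0.88 and 0.68 over 24. TF was not in that group of genes: its r with APOB was 0.41 over 25 means and -0.32 over 24, and its r with SERPINA1 was 0.80 and 0.61. With HNF4A, TF and SERPINA1 each had r = 0.69 over 25 means, and -0.1 and 0.3 over 24. FOXA2 had r between -0.50 and -0.19 with every other member over 25 means, and between -0.12 and 0.29 over 24. The 2 other genes most like each member by this measure, among 10664 with a mean of at least 5 CPM, were SLC16A14 (0.97) and ITGA1 (0.96) for APOB, NFASC (0.97) and TBC1D2B (0.97) for KNG1, PTK2B (0.92) and EHHADH (0.92) for HP, and GALNT4 (0.91) and ST6GAL2 (0.90) for TF. For SERPINA1 they were PBLD (0.87) and PCSK6 (0.86), for AMBP PMM1 (0.76) and NDUFA8 (0.74), for HNF4A MYORG (0.96) and MICAL2 (0.96), and for FOXA2 ATXN2L (0.90) and TJAP1 (0.86). Over 24 means 8 of these 16 genes were no longer among the 2 most like their member, MYORG (0.78) and MICAL2 (0.68) among them.

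The members were not alone among liver genes in falling with 500 µg/mL Glycyrrhizae. Of 48 other liver secreted proteins on a hand-written list, 29 passed the filter on low counts, and at 500 against 20 µg/mL 14 fell and 2 rose (median -0.63, against 0.0 for all genes). These counts, and those of the lists that follow, stand beside the 18.4% of all genes that fell and the 18.5% that rose in this comparison. The haem carrier HPX averaged 0.667 ± 0.0796 CPM at 500 µg/mL and 3.72 ± 0.588 CPM at 20 µg/mL (SD, n = 3 each; -2.47 ± 0.20, edgeR adjusted p = 3.1e-14). APOH, a phospholipid-binding plasma protein, averaged 5.24 ± 0.465 and 13.5 ± 2.20 CPM at those doses (-1.37 ± 0.11), the copper carrier CP 141 ± 3.42 and 254 ± 19.5 CPM (-0.85 ± 0.06), and the anticoagulant cofactor PROS1 41.0 ± 1.52 and 63.4 ± 1.49 CPM (-0.63 ± 0.04). Of 23 genes of interleukin 6 signalling and the acute phase, 21 were tested, 15 fell and 4 rose (median -0.55). The fibrinogen chains FGB (-1.29 ± 0.04) and FGA (-1.0 ± 0.04) and the signal carrier STAT3 (-0.64 ± 0.04) fell, and the cytokine LIF rose (0.92 ± 0.05).

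**Figure D4:**
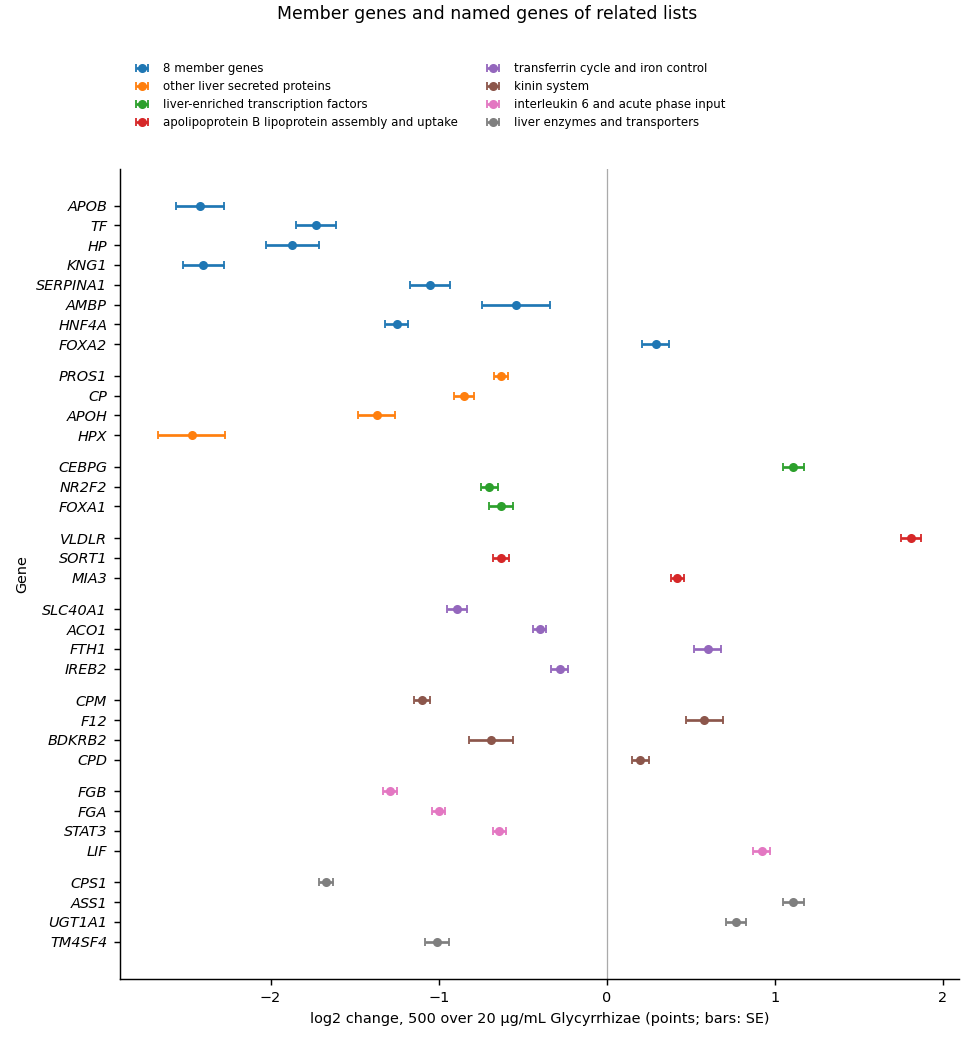
Change at 500 over 20 µg/mL Glycyrrhizae (log2, points; bars, SE) of the 8 members and of up to 4 called genes from each of 7 lists, coloured by list. HPX lies beside APOB and KNG1 at the far left, and VLDLR lies at the far right, at 1.81.

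Among 27 liver-enriched transcription factors besides the members, 23 were tested, 8 fell and 4 rose, with a median of -0.01, where 37% of all genes were called in either direction. FOXA1, the close relative of FOXA2, averaged 29.5 ± 2.03 CPM at 500 µg/mL and 45.6 ± 2.14 CPM at 20 µg/mL (SD, n = 3 each; -0.63 ± 0.07, edgeR adjusted p = 1.16e-10), a change of the other sign than that of FOXA2. The orphan nuclear receptor NR2F2 fell (-0.70 ± 0.05), and CEBPG, a C/EBP factor, rose (1.11 ± 0.06). Of 32 liver enzymes and transporters 16 were tested, 7 fell and 2 rose (median -0.63). CPS1, the first enzyme of the urea cycle, averaged 169 ± 6.77 and 537 ± 23.4 CPM (-1.67 ± 0.04), and TM4SF4, a membrane protein of liver and gut, changed by -1.01 ± 0.07, while ASS1, a later enzyme of the urea cycle, rose by 1.11 ± 0.06 and the bilirubin-conjugating UGT1A1 by 0.77 ± 0.06. The summed level of the 8 hepatocyte markers, which include members of these lists, was 1.08 to 2.09 CPM at 500 µg/mL Glycyrrhizae, 4.27 to 4.99 CPM at 20 µg/mL and 4.57 to 5.01 CPM in the vehicle, and its part in these counts was not tested. SLC10A1 was the largest of the 8, with means of 0.842 CPM at 500 µg/mL, 3.17 CPM at 20 µg/mL and 2.86 CPM in the vehicle. The sums of the other marker lists moved too. At 500 against 20 µg/mL Glycyrrhizae, 14 epithelial markers summed to 6258 to 6724 against 8516 to 8979 CPM, 4 endothelial markers to 12.6 to 13.0 against 21.2 to 22.1 CPM, 4 fibroblast markers to 4.74 to 5.1 against 9.41 to 11.2 CPM, and 5 leukocyte markers to 3.34 to 3.99 against 2.4 to 2.91 CPM. Their part was not tested either.

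The partners of the individual members did not all go the way of the members, and their counts again stand beside 37% of all genes called. Of 20 genes of APOB lipoprotein assembly and uptake 17 were tested, 8 rose and 4 fell (median 0.22). The lipoprotein receptor VLDLR (28.2 ± 0.183 CPM at 500 µg/mL and 8.04 ± 0.427 CPM at 20 µg/mL; 1.81 ± 0.06, edgeR adjusted p = 1.75e-27) rose, as did MIA3, which helps load large cargo in the endoplasmic reticulum (0.42 ± 0.04), and the sorting receptor SORT1 fell (-0.63 ± 0.05). All 12 genes of the transferrin cycle and iron control were tested, 5 fell and 3 rose (median 0.01). The iron exporter SLC40A1 fell (-0.89 ± 0.06), the iron regulatory proteins ACO1 (-0.40 ± 0.04) and IREB2 (-0.28 ± 0.05) fell, and the ferritin heavy chain FTH1 rose (0.60 ± 0.08). Of 12 genes of the kinin system 9 were tested, 2 fell and 2 rose (median -0.11). The kinin-cleaving carboxypeptidase M, whose gene is also written CPM, fell (-1.10 ± 0.05), as did the bradykinin receptor BDKRB2 (-0.69 ± 0.13), whereas F12 (0.58 ± 0.11), which starts the contact pathway, and CPD, another carboxypeptidase (0.20 ± 0.05), rose.

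The same lists were counted in the other replicated extracts, and differences between extracts were not tested for a list. Of the 29 other secreted proteins tested, at 500 against 20 µg/mL, 3 fell with Ginseng where 1.2% of all genes were called, 1 with Poria (1.55%) and 0 with Atractylodis (0.208%). With Sibjeondaebo-tang 3 fell and 1 rose (3.78%), and with Palmul-tang 2 fell and 1 rose (2.08%). The gene for carboxypeptidase M fell with Ginseng (-0.31 ± 0.05), Poria (-0.29 ± 0.05), Atractylodis (-0.34 ± 0.05) and Sibjeondaebo-tang (-0.29 ± 0.05), each by edgeR's adjusted test, and the Ginseng call was lost in the compared groups alone (adjusted p = 0.0559). With Atractylodis VLDLR rose by 0.39 ± 0.07 (edgeR adjusted p = 0.000998), averaging 10.6 ± 0.944 CPM at 500 µg/mL and 8.07 ± 0.42 CPM at 20 µg/mL (SD, n = 3 each), a call lost in 2 of 11 alternatives (adjusted p up to 0.162). With Sibjeondaebo-tang the acute phase gene SAA2 rose by 0.68 ± 0.09 (edgeR adjusted p = 1.17e-06), averaging 28.3 ± 0.589 and 17.6 ± 2.58 CPM. With Palmul-tang the retinol carrier RBP4 changed by -0.42 ± 0.09, ITIH2, which carries the bikunin made from AMBP, by -0.65 ± 0.14 and the antiprotease SERPINA3 by 0.46 ± 0.11, all 3 called by edgeR. Those calls were lost in 2 of 9, 3 of 8 and 4 of 9 alternatives in that order, each time with a library left out (adjusted p up to 0.185, 0.119 and 0.124). FGA (-0.25 ± 0.04, lost in the compared groups alone with an adjusted p of 0.123) and TM4SF4 (-0.42 ± 0.07) fell with Ginseng, and the drug-metabolising CYP3A5 fell with Poria (-0.44 ± 0.07) and Sibjeondaebo-tang (-0.37 ± 0.07).

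Against the vehicle, the low doses already stood higher for 5 members. The mean of the 6 replicated 20 µg/mL groups differed from the 3 vehicle libraries by 0.47 ± 0.09 for APOB (edgeR adjusted p = 7.48e-05), 0.42 ± 0.11 for HP (0.00183), 0.35 ± 0.08 for KNG1 (0.00046), 0.26 ± 0.09 for SERPINA1 (0.0233) and 0.25 ± 0.08 for TF (0.0199), where 34.1% of all genes were called. HNF4A differed by 0.06 (95% interval -0.04 to 0.15), AMBP by -0.15 (-0.44 to 0.14) and FOXA2 by -0.13 (-0.25 to -0.02), none of them called. The SERPINA1 call was lost without the first or the second vehicle library (0.25 and 0.23, adjusted p = 0.0949 and 0.126), and so was the TF call (0.19 and 0.18, adjusted p = 0.178 and 0.208). The vehicle libraries carry a set code that no extract carries, so set and treatment cannot be told apart, and the dose comparisons within an extract are the ones that do not depend on the vehicle.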

How the data were processed

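Messenger RNA of A549 cells was sequenced 24 h after treatment, in 60 libraries. Per the submitters' processing notes the tools were FastQC 0.11.9, Trim Galore 0.6.5, STAR 2.7.3a and RSEM 1.3.3, with GRCh38 as the genome. Which annotation release and which strand setting were used is not given in the sources used here. Gene-level expected counts were deposited by the authors as a table of 60675 identifiers and 270 columns, and 210 of the columns were left out. Rounding to whole numbers came first, since 76.0% of the nonzero values were whole within 1e-09. DMSO in the vehicle is 0.1% by its labels but 2% by the design text, and the positive control named there was not analysed here.

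In edgeR 4.0.16 under R 4.3.3, 17765 genes passed filterByExpr and were scaled by TMM. A quasi-likelihood model with a mean for each of the 25 groups had 35 residual degrees of freedom, and its common coefficient of biological variation was 5.59%. P-values were adjusted over all genes tested by Benjamini-Hochberg at 0.05, and each SE was taken as the log2 change over the root of its F statistic. Extracts with 1 library per dose were described on log2(CPM + 1), with 2-fold as the limit. Members, lists and comparisons were chosen with earlier results of these data known. The genes named from each list were the up to 4 with the smallest adjusted p among those called in Glycyrrhizae at 500 against 20 µg/mL with a mean of at least 1 CPM, and up to 3 list genes per other extract; a few of them are not reported here. The genes most like a member were the 2 with the highest Pearson r. None of 51 replicate pairs lay within sampling noise, the chi-square over its degrees of freedom being 2.72 to 40.3.

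In data simulated for Glycyrrhizae at 500 against 20 µg/mL (17291 genes), the model recovered 30, 46, 47 and 50 of 50 genes changed by 1.25, 1.5, 2 and 4 times. Alternatives tried were RLE size factors, DESeq2 1.42.0, a fit without the filter, the compared groups alone, a replicate block, each library left out and, for single libraries, a pseudocount of 0.5, library totals and no filter. Symbols and positions came from GENCODE 29, and promoters from RefSeq.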

Additional observations from a re-analysis of the deposited data

Results flagged for a closer look

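The change from 20 to 500 µg/mL differed between extracts in 15 tests of single members, each by edgeR's quasi-likelihood interaction test with Benjamini-Hochberg adjustment over all genes. Between Glycyrrhizae and Ginseng 7 of 8 members and 21% of all genes were called. Atractylodis against Glycyrrhizae had 7 of 8 and 24.2%, and against Ginseng 1 of 8 and 0.113%. Atractylodis against Poria had 0 of 8 and 0.0732%, and the 2 formulas 0 of 8 and 0%. Glycyrrhizae differed from Ginseng, log2 ± SE, by -1.98 ± 0.18 for APOB, -1.69 ± 0.16 for KNG1, -1.37 ± 0.16 for TF, -1.15 ± 0.21 for HP, -1.11 ± 0.09 for HNF4A and -0.66 ± 0.17 for SERPINA1 (adjusted p 2.05e-13 to 0.00247), so these 6 fell further with Glycyrrhizae. FOXA2 differed by 0.31 ± 0.11 (adjusted p = 0.0377), and that call was lost in 9 of 17 alternatives: DESeq2 (adjusted p = 0.0557), no filter, the compared groups alone and 6 fits with a library left out, among them the one without the first 500 µg/mL Glycyrrhizae library (0.19, adjusted p = 0.23).

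Atractylodis differed from Glycyrrhizae, in a comparison chosen after the values were seen, by 2.30 ± 0.16 for TF, 2.04 ± 0.16 for KNG1, 1.74 ± 0.18 for APOB, 1.26 ± 0.21 for HP, 1.24 ± 0.09 for HNF4A and 0.86 ± 0.17 for SERPINA1 (adjusted p 4.1e-16 to 8.06e-05), and by -0.44 ± 0.11 for FOXA2 (adjusted p = 0.00187). Atractylodis differed from Ginseng by 0.94 ± 0.14 for TF (adjusted p = 0.000188), the single member called there. Both of these pairs differ in set code as well as in extract.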

How the results depend on the processing

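Over the 18 comparisons of the 8 members no called change turned its direction under an alternative that gave a value. Of the changes that were not called, 29, at most 0.14 in size, had alternatives on both sides of 0. RLE size factors kept all 144 results on their side of the threshold, DESeq2 107 of 110 (34 of 144 had no adjusted p), no filter 138 of 144, the compared groups alone 135 of 144, and leaving out a library 1132 of 1168. The cause of these shifts was not tested.

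Genes called over the whole table, and members called, moved by over 1.5 times as follows. At 500 against 20 µg/mL Ginseng had 214 genes (21 in the compared groups alone, 94 to 244 with a library left out) and 3 members (5 with no filter, 1 in the compared groups alone, 2 to 4). Poria had 275 (123; 142 to 196). Atractylodis had 37 (67 with DESeq2, 213 with no filter, 21 in the compared groups alone, 16 to 30 with a library left out). Sibjeondaebo-tang had 672 (323; 377 to 502) and 1 member (2 with no filter). Palmul-tang had 370 (577 in the compared groups alone; 108 to 172) and 1 member (0 with any library left out). Glycyrrhizae at 100 against 20 µg/mL had 140 genes (8; 67 to 140) and 4 members (0; 3 to 4). At 100 µg/mL Ginseng had 0 genes (3 with DESeq2, 44 with no filter, 0 to 2 with a library left out), Poria 0 (60 with no filter; 0 to 2), Atractylodis 0 (51 with no filter), Palmul-tang 0 (4 with DESeq2, 63 with no filter, 4 in the compared groups alone; 0 to 2) and Sibjeondaebo-tang 14 (85 with no filter, 7 in the compared groups alone; 1 to 3). Atractylodis minus Poria had 13 (43 with DESeq2, 174 with no filter, 3 in the compared groups alone; 8 to 18), Sibjeondaebo-tang minus Palmul-tang 0 (1 with DESeq2, 61 with no filter) and Atractylodis minus Ginseng 20 (143 with no filter, 7 in the compared groups alone; 8 to 27). Members called in the low dose against vehicle comparison were 5 (3 to 5). Members called moved by no more than 1.5 times in Atractylodis at 500 µg/mL, at 3 (2 to 3), and in Glycyrrhizae at 500 µg/mL, at 8 (6 to 8). With a pseudocount of 0.5, genes past 2-fold numbered 64 in place of 23 for Angelicae and 1318 in place of 848 for Paeoniae. At 500 µg/mL HP was then past 2-fold with Paeoniae (-1.16) but not with Angelicae (-0.88). The median r of the 16 genes most like the members was 0.92, and 0.79 without the 500 µg/mL Glycyrrhizae group.

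Same-numbered libraries deviated together (r over 0.1) in 71 of 123 pairs: 40 of 45 in the set of Glycyrrhizae and Ginseng (median r 0.278, lowest -0.155), 24 of 45 in that of Poria and Atractylodis and 7 of 33 in that of the formulas. Since no set had every pair over 0.1, the numbers were not taken to pair the samples in the main fit. That rule is strict, and a set with most pairs over 0.1 also fails it. With a replicate block, genes called at 500 µg/mL numbered 332 for Ginseng, 493 for Poria, 86 for Atractylodis, 1016 for Sibjeondaebo-tang and 577 for Palmul-tang. At 100 µg/mL they numbered 211 for Glycyrrhizae, 1 for Poria and 23 for Sibjeondaebo-tang, and between extracts 46 for Atractylodis minus Poria and 45 for Atractylodis minus Ginseng. The block gave 5 members in place of 3 for Ginseng (TF and SERPINA1 added), 1 more (KNG1) for Atractylodis and 2 in place of 1 for Sibjeondaebo-tang. AMBP (23 to 62 counts a library) and HP (17 to 130) have the fewest counts and the widest SEs.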
